A study of Solanum lycopersicum with 12 samples.

Results

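Leucine aminopeptidase, threonine deaminase and polyphenol oxidase are wound enzymes of tomato (Solanum lycopersicum), and their transcripts were followed here on 12 leaf arrays. Members were chosen by name: a probe set belonged when the array annotation or the lists of the study named its gene as 1 of the 3 enzymes. The rule found 8 of the 10209 probe sets on the array, which stand for 5 genes. These were leucine aminopeptidase A1 (LAPA1), leucine aminopeptidase A2 (LAPA2), threonine deaminase 2 (TD2), polyphenol oxidase F (PPOF) and polyphenol oxidase A (PPO-A, 4 probe sets). PPOF was found only through a list of the study, and PPO-A through its gene synonyms in RefSeq. The lists had been selected on these same arrays: LAPA1 and PPOF were listed as higher after Alethea, and TD2 as higher under salt. Changes of a member in the contrast that listed it are therefore given as a description, with no test. Within the stress and defence groups raised by Alethea, the paper reports no significant numbers of typical jasmonate marker genes. It names these 3 enzymes among its examples.

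All plants were cultivar Ailsa Craig, 4 weeks old, and every array held RNA of the third true leaf pooled from 3 plants. In the AS group, leaves were sprayed with Alethea and the pots were watered with 100 mM NaCl, and in the AW group Alethea was followed by plain water. The WS group was sprayed with water and then given the same salt, and the WW group received water both times. Alethea is a mixture that contains potassium dihydrojasmonate, a jasmonate analogue, together with sodium benzoate and L-arginine. The formulation also held the nutrients zinc, iron, manganese, copper, magnesium and boron, whereas control leaves were sprayed with distilled water. The part of each compound or nutrient therefore cannot be told apart in these groups. Leaves were taken 24 h after the salt and 48 h after the spray. Each group has 3 arrays, 1 from each of 3 separate occasions. Values are GCRMA log2 values, so a difference of 1 is a doubling of the signal, and levels of different probe sets were not compared as amounts.

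Wound-induced forms of these enzymes act in the anti-herbivore branch of jasmonate signalling. On wounding, jasmonate levels rise, repressor proteins are broken down, the factor MYC2 is freed, and late genes are transcribed. Among them are protease inhibitors, arginase and the wound-induced forms of the enzymes described here. The acidic leucine aminopeptidases of nightshades cut amino acids from the ends of peptides, whereas the neutral form is found in all plants and changes little on wounding. Threonine deaminase starts isoleucine synthesis, and in tomato the TD2 form also destroys threonine in the gut of insects that eat the leaf. Polyphenol oxidase turns phenolics into quinones, which cross-link dietary proteins when leaf cells break.

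Of the 8 probe sets, 4 passed the filter on low signal, which asked that 1 or more groups average over 3.2. They were LAPA1, LAPA2, TD2 and PPOF. The 4 PPO-A probe sets did not. Their 48 values lay between 1.46 and 1.92, and within a probe set the 12 arrays spanned at most 0.14. No transcript level can be read from values that low, and 2157 of the 10209 probe sets on the array (21.1%) stayed under 3.2 throughout. In the RefSeq annotation of tomato, LAPA1 and LAPA2 lie on the same chromosome with 1 protein-coding gene between them, and TD2 and PPO-A lie on other chromosomes. A pair of further polyphenol oxidase genes lie side by side, with 4 protein-coding genes between PPO-A and the nearer one. LAPA1 and LAPA2 are related genes, and cross-hybridisation between their probe sets was not tested.

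The LAPA1 transcript was higher after Alethea in each of the 6 comparisons within an occasion, and highest with Alethea and salt together. In the AS group it measured 7.30, 9.0 and 9.50 in occasions 1, 2 and 3. The AW values were 6.79, 8.33 and 8.55. Without Alethea it measured 5.82, 6.60 and 8.78 in the WS group and 6.01, 6.66 and 8.13 in the WW group. The 6 Alethea arrays (6.79 to 9.50) overlapped with the 6 water-sprayed arrays (5.82 to 8.78). In occasions 1 and 2 both Alethea values lay above both water-sprayed values, and in occasion 3 the AW value of 8.55 lay below the WS value of 8.78. Group means were 8.60 ± 1.15 in AS, 7.89 ± 0.96 in AW, 7.07 ± 1.53 in WS and 6.93 ± 1.09 in WW (SD, n = 3 each).

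The mean Alethea difference of LAPA1 was 1.24 (SE 0.24), a 2.37-fold difference, and it is not tested because LAPA1 was selected on this contrast. It was 1.53 with salt (AS minus WS) and 0.96 without salt (AW minus WW). By occasion, the AS minus WS difference was 1.48, 2.40 and 0.72 in occasions 1, 2 and 3, and the AW minus WW difference was 0.78, 1.67 and 0.42. Both were thus largest in occasion 2 and smallest in occasion 3, the occasion in which the water-sprayed leaves already had their highest LAPA1 values.

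Salt was not used to choose LAPA1. The AS minus AW differences were 0.52, 0.67 and 0.95 in occasions 1, 2 and 3, and the WS minus WW differences were -0.18, -0.05 and 0.65. LAPA1 was therefore higher with salt in 3 of 3 occasions after Alethea and in 1 of 3 after water. The mean salt difference was 0.43 (SE 0.24, 95% interval -0.11 to 0.96), which did not pass limma (adjusted p = 0.462, higher in 4 of 6 pairs). After Alethea alone it was 0.71 (95% interval -0.04 to 1.47, limma adjusted p = 0.955), and after water alone 0.14 (-0.62 to 0.90, limma adjusted p = 0.932). The difference between these salt changes was above 0 on every occasion (0.70, 0.73 and 0.30). Its mean of 0.58 (95% interval -0.50 to 1.65) did not pass the interaction test of limma (adjusted p = 1.0).

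LAPA2, whose annotation lists the neutral form LapN among its names, varied little. Its values were 11.59, 12.03 and 12.03 in AS, and 11.76, 11.71 and 11.89 in AW leaves. They were 11.72, 11.64 and 12.08 in WS, and 11.59, 11.37 and 11.93 in WW leaves. All 4 groups overlapped, and the 12 arrays spanned 0.71, against 3.68 for LAPA1.

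No list of the study held LAPA2, so all its contrasts could be tested. The Alethea difference was 0.11 (SE 0.10, 95% interval -0.11 to 0.34), higher in 3 of 6 pairs, and did not pass limma (adjusted p = 0.446). The salt difference was 0.14 (SE 0.10, 95% interval -0.08 to 0.36), higher in 5 of 6 pairs (limma adjusted p = 0.56). Its interaction was -0.08 (95% interval -0.53 to 0.36, limma adjusted p = 1.0). By occasion, the mean Alethea difference was 0.02, 0.36 and -0.04, so what there was came from occasion 2.

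**Figure D1:**
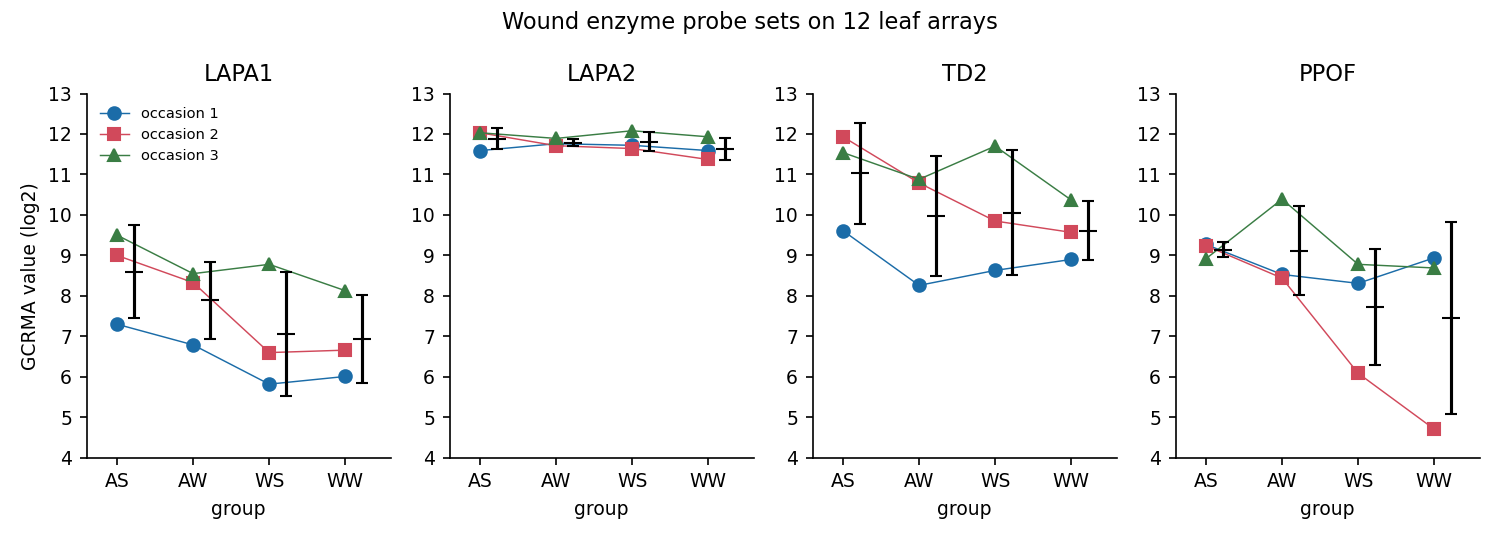
GCRMA log2 values (vertical axis) of LAPA1, LAPA2, TD2 and PPOF in the AS, AW, WS and WW groups (horizontal axis, n = 3 arrays each). Points joined by a line belong to 1 occasion, and black bars give the group mean ± SD. LAPA1 and TD2 were lowest in occasion 1, LAPA2 stayed between 11.37 and 12.08, and PPOF had its lowest values, 4.71 and 6.09, in the water-sprayed leaves of occasion 2.

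The mean of TD2 was highest with Alethea and salt together, at 11.03 ± 1.24 in AS, 9.98 ± 1.48 in AW, 10.06 ± 1.54 in WS and 9.61 ± 0.74 in WW leaves (SD, n = 3 each), and its level differed widely between occasions. In the AS group it measured 9.61, 11.93 and 11.54 in occasions 1, 2 and 3. The AW values were 8.26, 10.79 and 10.88. The WS values were 8.63, 9.85 and 11.70, and the WW values were 8.90, 9.57 and 10.37. The 4 groups overlapped, and the lowest array of all was an Alethea-sprayed one, AW of occasion 1.

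The mean salt difference of TD2, the contrast on which it was selected and which is therefore not tested, was 0.75 (SE 0.30), a 1.68-fold difference. It was 1.05 after Alethea (AS minus AW; 1.35, 1.14 and 0.66 in occasions 1, 2 and 3) and 0.45 after water (WS minus WW; -0.27, 0.28 and 1.33). TD2 was thus higher with salt in 5 of 6 pairs, the exception being the water-sprayed leaves of occasion 1. Without occasion 3 its WS minus WW difference was 0.01. The order of the occasions was opposite after the 2 sprays. After Alethea the salt difference was largest in occasion 1, and after water it was largest in occasion 3.

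Alethea was not used to choose TD2. The AS minus WS differences were 0.98, 2.09 and -0.15, and the AW minus WW differences were -0.63, 1.22 and 0.51. Both were largest in occasion 2, as for LAPA1, and 1 of each was below 0. The mean Alethea difference was 0.67 (SE 0.30, 95% interval -0.01 to 1.35), a 1.59-fold difference in 4 of 6 pairs, and did not pass limma (adjusted p = 0.165). With salt the difference was 0.97 (95% interval 0.01 to 1.93). It had an unadjusted limma p of 0.0485 and an adjusted p = 0.211, the only unadjusted p under 0.05 among the tests of these enzymes. Without salt it was 0.37 (-0.60 to 1.33, limma adjusted p = 0.715). Without occasion 2 the AW minus WW difference of TD2 turned to -0.06, and the mean Alethea difference was 0.18. The interaction was 0.61 (95% interval -0.76 to 1.97, limma adjusted p = 1.0), from 1.62, 0.86 and -0.66 in occasions 1, 2 and 3.

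PPOF was the most variable of the enzymes. It measured 9.27, 9.24 and 8.92 in the AS group, the narrowest group, in occasions 1, 2 and 3. The AW values were 8.53, 8.44 and 10.39, and the WS values were 8.31, 6.09 and 8.78. In the WW group it measured 8.94, 4.71 and 8.69. Apart from the WW and WS arrays of occasion 2, all values lay between 8.31 and 10.39, and those of the sprays overlapped.

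The mean Alethea difference of PPOF, again the contrast of its selection and not tested, was 1.55 (SE 0.57), a 2.92-fold difference in 5 of 6 pairs. It averaged 0.27, 3.44 and 0.92 in occasions 1, 2 and 3. The AW minus WW differences were -0.41, 3.73 and 1.70, and the AS minus WS differences were 0.95, 3.16 and 0.14. Most of the mean therefore came from occasion 2, with its 2 low arrays. Without these arrays, a choice made after the data were seen, the Alethea difference of PPOF was 0.60.

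The same arrays stood apart in another measure. The bacterial hybridisation controls, which are added to every sample, had means of 12.37 on WS and 12.45 on WW in occasion 2, while the remaining 10 arrays ran from 10.77 to 11.68. Without these WS and WW arrays, again a choice made after the data were seen, the other Alethea differences were also smaller. LAPA1 went from 1.24 to 0.85, TD2 from 0.67 to 0.18 and LAPA2 from 0.11 to -0.01. The Alethea calls of limma over all probe sets went from 636 to 0, as they also did without occasion 3. The part of the high control signals in these differences and in that of PPOF was not tested. Salt gave no clear direction for PPOF, with AS minus AW differences of 0.74, 0.80 and -1.47 and WS minus WW differences of -0.62, 1.37 and 0.09. The mean salt difference was 0.15 (SE 0.57, 95% interval -1.14 to 1.45), and it did not pass limma (adjusted p = 0.947). The interaction of -0.26 (95% interval -2.85 to 2.33) did not pass either (limma adjusted p = 1.0). Intervals of this width allow more than a doubling of PPOF in either direction.

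**Figure D2:**
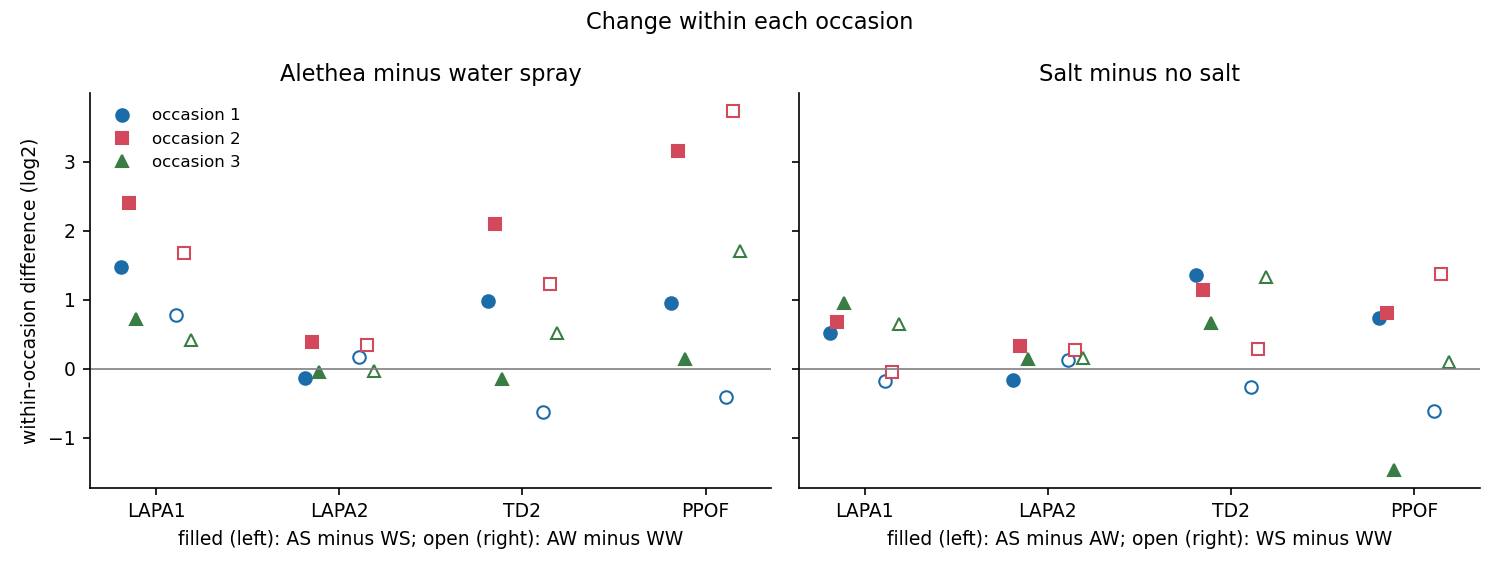
Differences within each occasion (vertical axis, log2) for Alethea minus water spray (left) and salt minus no salt (right), for the 4 enzymes on the horizontal axis. Filled points are AS minus WS or AS minus AW, and open points are AW minus WW or WS minus WW. The 6 Alethea differences of LAPA1 were all above 0 (0.42 to 2.40), those of PPOF ran from -0.41 to 3.73, and the largest Alethea difference of every enzyme was in occasion 2.

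Counted over the tests that the choice of members left independent, none passed an adjusted p of 0.05 in limma. For Alethea 2 members could be tested, for salt 3, and for the interaction all 4, and the count called was 0 each time. Over all 7779 probe sets tested, limma called (in either direction) 8.18% for Alethea, 0.0386% for salt and 0% for the interaction, in which 169 had an unadjusted p under 0.05. In the pair-wise comparisons that listed none of them, it also called 0 members. The share of all probe sets called was 0% for AS minus WS, 0% for AW minus WW, 0% for AS minus AW and 0.0386% for WS minus WW, with 1823, 986, 387 and 817 probe sets at an unadjusted p under 0.05. Rank Product, the rank-based method of the study, was run on the same contrasts other than the interaction. It also called none of these members there, and its lowest estimated false discovery rate was 0.0931, for TD2 and Alethea. A count of 0 of 3 for salt thus lies beside a background of almost no calls.

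As a description of size, 56 of the 7779 probe sets had a larger Alethea difference than LAPA1, 28 a larger one than PPOF, 228 a larger one than TD2 and 2539 a larger one than LAPA2. For salt, 40 probe sets had a larger difference than TD2, 216 than LAPA1, 1536 than PPOF and 1622 than LAPA2. LAPA1 and PPOF were selected on Alethea and TD2 on salt, so their high places in those contrasts are what the selection gives. The median over all probe sets was -0.003 for Alethea and 0.0 for salt. The salt and Alethea differences of TD2, 0.75 and 0.67, lay closer together than their SE of 0.30.

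The occasion accounted for more of the variation in these enzymes than either treatment. Of the sum of squares over 12 arrays, it held 60.1% for LAPA1, 48.1% for LAPA2, 66.7% for TD2 and 38.1% for PPOF, against a median of 51.5% over all probe sets tested. Alethea held 27.3% for LAPA1, 7.4% for LAPA2, 8.1% for TD2 and 28.5% for PPOF (median of all probe sets 8.2%). The share of salt was 3.2% for LAPA1, 11.7% for LAPA2, 10.1% for TD2 and 0.3% for PPOF (median 3.0%). The Alethea shares of LAPA1 and PPOF and the salt share of TD2 belong to the contrasts that selected them, which favours larger shares. LAPA1 averaged 6.48, 7.65 and 8.74 over the 4 arrays of occasions 1, 2 and 3, and TD2 averaged 8.85, 10.53 and 11.12. PPOF followed another order, with 8.76, 7.12 and 9.19.

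After occasion and group were fitted, the scatter of the enzymes differed widely. The residual SD was 0.474 for LAPA1, 0.610 for TD2 and 1.176 for PPOF, larger than in 91.5%, 95.8% and 99.3% of the probe sets tested, and 0.165 for LAPA2, against a median of 0.197. The SE of a PPOF difference was therefore more than double that of LAPA1, at the same number of arrays.

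**Figure D3:**
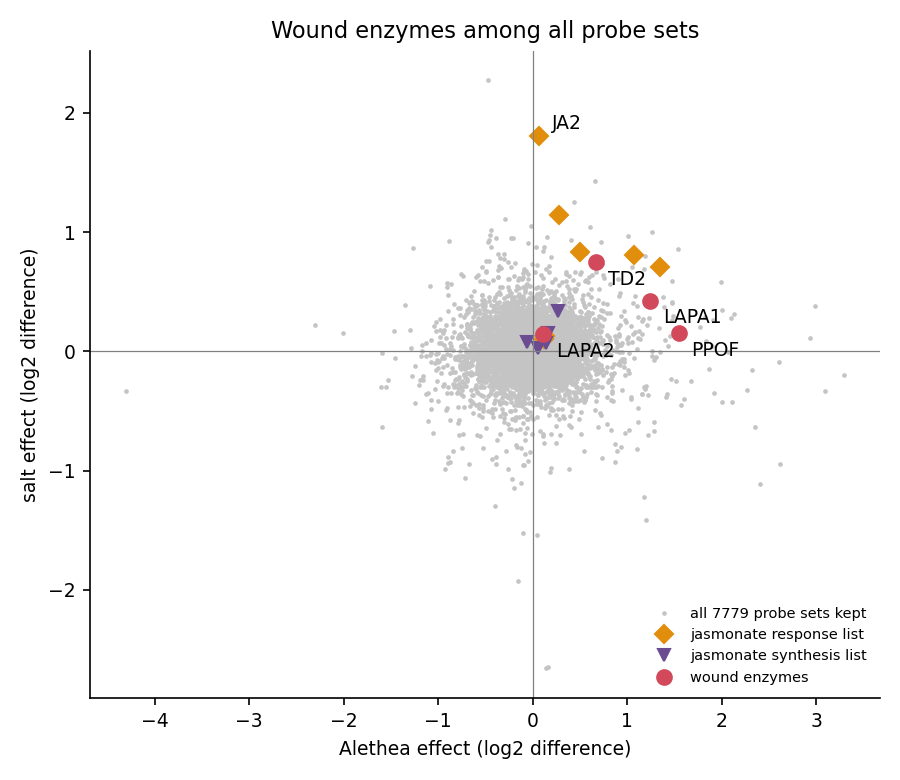
Alethea effect (horizontal axis) against salt effect (vertical axis), both as log2 differences, for the 7779 probe sets tested (grey), the wound enzymes (red circles), and the jasmonate response (orange diamonds) and jasmonate synthesis (purple triangles) genes found by symbol. LAPA1 and PPOF lie far to the right, at 1.24 and 1.55, TD2 lies up and to the right at 0.67 and 0.75, LAPA2 lies among the synthesis genes near the centre, and JA2 is the highest diamond at 1.81.

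LAPA1, TD2 and PPOF varied together across the arrays once the occasion means were subtracted, and LAPA2 did so less by rank. The Pearson r over 12 arrays was 0.84 between LAPA1 and TD2 (Spearman rho 0.83), 0.74 between LAPA1 and PPOF (rho 0.80) and 0.72 between PPOF and TD2 (rho 0.69). LAPA2 had an r of 0.67, 0.69 and 0.65 with LAPA1, TD2 and PPOF, but its rho was lower, at 0.40, 0.48 and 0.21. The arrays share their treatments, so these values describe the pattern and are no test. Without subtraction of the occasion means, r was 0.92 between LAPA1 and TD2 and 0.29 between PPOF and TD2.

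The probe sets with a gene symbol and the pattern most like LAPA1 were TPSI1 and SK, named as a shikimate kinase gene (r = 0.93 each), followed by LOC544252, ail and the copper/zinc superoxide dismutase SODCC.1 (0.89 each). Those most like TD2 were ST2 and PGcat (0.92 each), the chromoplast protein gene ChrC (0.91), and SK and ER21 (0.89 each). SK was thus among the 5 nearest of both. Most like PPOF were Psy1, for the phytoene synthase of carotenoid synthesis (0.94), the cyclin-dependent kinase CDKB1 (0.92), LOC543949 and the wound-inducible glucosyltransferase gene twi1 (0.91 each), and LOC778198 (0.90). Each value is a Pearson r of occasion-centred values over 12 arrays, taken from 7778 comparisons per enzyme. Without centring, r fell to 0.05 for TPSI1 and 0.20 for LOC544252 with LAPA1, and to 0.25 for ChrC with TD2. With PPOF it fell to 0.49 for CDKB1, 0.60 for twi1 and 0.75 for LOC543949. SK, ail and SODCC.1 kept 0.90, 0.95 and 0.94 with LAPA1.

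Among other late jasmonate genes, the 2 measured probe sets of arginase 2 (ARG2), which breaks down arginine in the gut of insects, had Alethea differences near that of LAPA1. For 1 of them limma made a call, at a log2 difference of 1.35 (SE 0.23, adjusted p = 0.0284) in 6 of 6 pairs, and the other had 1.07 (SE 0.31, adjusted p = 0.0618), also in 6 of 6. Both ARG2 probe sets were on the Alethea list of the study, so the call is not independent evidence. They were also on its list of probe sets higher under salt, with salt differences of 0.71 and 0.81. The paper cites earlier work in which arginase expression responded to added arginine, a part of the spray, as well as to jasmonate. Their parts were not tested. The jasmonate response list by symbol had 8 probe sets on the array. Of the 7 tested, 1 was called higher for Alethea and 0 for salt. Among all probe sets tested, limma called 3.57% higher for Alethea and 0 for salt. All 7 differences were above 0 in both contrasts, and the medians were 0.28 for Alethea and 0.81 for salt. The study had listed 5 of the 7 on these same arrays, so their direction is not independent evidence. The 7 include both ARG2 probe sets. They also include LOC543954, at 0.5 for Alethea and 0.83 for salt, which the study describes as MADS-box protein 15. JA2, a NAC factor induced by jasmonate and abscisic acid, had the largest salt difference of the list, 1.81 (SE 0.37), in 6 of 6 pairs, but an Alethea difference of 0.07. It did not pass limma for salt (adjusted p = 0.123). MYC2 was at 0.12 for Alethea and 0.10 for salt.

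A further 3 protease inhibitors were named only by the salt list of the study, as TD2 was listed for salt, so a larger salt value is what their selection gives and they are described without a test. The metallocarboxypeptidase inhibitor had a salt difference of 1.25 and an Alethea difference of 0.44, aspartic protease inhibitor 1 had 0.59 and 0.36, and the inhibitor ARPI 0.55 and 0.37. The jasmonate synthesis list holds loxD, AOC and OPR3, which make the hormone from linolenic acid, and further lipoxygenase and OPR genes taken by name. Whether these further genes take part in jasmonate synthesis was not tested. Values of this list were smaller. Of 10 probe sets 6 were tested, and 0 were called in either contrast. The share of all probe sets called was 8.18% for Alethea and 0.0386% for salt. The medians of the list were 0.14 for Alethea and 0.10 for salt. The largest was the lipoxygenase TomloxE, at 0.27 and 0.34.

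Enzymes that border on these 3 in metabolism gave values in either direction. Acetolactate synthase, which acts next after threonine deaminase on the way to isoleucine, had an Alethea difference of -1.13 (SE 0.18), below 0 in 6 of 6 pairs. Its group means were 7.26 in AS and 7.34 in AW leaves, against 8.54 in WS and 8.31 in WW leaves. It was found only through the list of the study of probe sets lower after Alethea, selected on the same arrays, so this difference is not tested. Among 6 genes of phenolic synthesis, the pathways that make polyphenol oxidase substrates, 1 was called higher for Alethea, beside 3.57% of all probe sets. It was THT1-3, a tyramine hydroxycinnamoyl transferase, at 1.87 (SE 0.34, limma adjusted p = 0.0294) in 5 of 6 pairs. THT1-3 was also on the Alethea list of the study, as was a further transferase of this kind found only there, at 0.72 (SE 0.29). The chlorogenic acid enzyme gene hqt and the chalcone synthases CHS1 and CHS2 were at 0.18, 0.41 and 0.27, and the median of the 6 was 0.34 for Alethea and -0.04 for salt.

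Of 8 other peptidase probe sets found by symbol and tested, 0 were called higher and 2 lower after Alethea, with a median of -0.29. Over all probe sets, limma called 3.57% higher and 4.6% lower for Alethea. P69A, a subtilisin-like protease of the apoplast, fell by 0.33 (SE 0.08, limma adjusted p = 0.0445), and VPE5, a vacuolar processing enzyme, fell by 0.66 on 1 probe set (SE 0.14, limma adjusted p = 0.0358). Each was lower in 6 of 6 pairs. A further VPE5 probe set, at -0.43, did not pass (adjusted p = 0.0681). Neither P69A nor VPE5 was on a list of the study. A subtilisin-like protease found only through the Alethea list had the largest difference of the peptidases, 1.26 (SE 0.37), above 0 in 5 of 6 pairs, close to the 1.24 of LAPA1 and likewise selected on this contrast.

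Of 12 salicylate and pathogenesis-related genes found by symbol and tested, 2 were called higher after Alethea and 0 lower. The shares of all probe sets called were 3.57% higher and 4.6% lower. The 2 called were the osmotin-like NP24-I (1.12, SE 0.22, limma adjusted p = 0.0335) and TSI-1 (0.90, SE 0.14, limma adjusted p = 0.0226), higher in 6 and 5 of 6 pairs. Both were on the Alethea list. The study also listed NP24-I as lower and TSI-1 as higher under salt, at salt differences of -0.59 and 0.6. PR1b1, P4 and PR-5 were at 0.12, 0.24 and -0.08 for Alethea and did not pass (limma adjusted p = 0.472, 0.501 and 0.769). The median of the 12 was 0.26 for Alethea and 0.05 for salt. The largest difference of the 12 was that of LOC543878, 2.40 (SE 0.76), which did not pass (limma adjusted p = 0.0751). A further 6 were found only through the lists of the study, 5 of them selected on Alethea, and are described without a test. Their Alethea differences were 1.43 (SE 0.21) for a chitinase/lysozyme, 0.98 (SE 0.26) for a class IV chitinase, 0.29 (SE 0.22) for a thaumatin listed for salt, -0.91 (SE 0.31) for a beta-1,3-glucanase, and -0.70 (SE 0.11) for pathogenesis-related protein 10, which was below 0 in 6 of 6 pairs. A protein similar to STH-2 was at 0.67 (SE 0.08), above 0 in 6 of 6, and the median of the 6 was 0.48. Leaving out occasion 2 or occasion 3 ended every Alethea call of limma, those of all the genes named here included. Taking means per treatment and occasion did the same. Leaving out occasion 1 also ended those of ARG2, P69A, VPE5 and NP24-I.

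The control transcripts of RNA quality also differed between sprays. For actin, the gap between its 3′ and 5′ probe sets, larger where RNA is shorter or labelling less complete, ran from 0.94 to 1.72 in the Alethea arrays and from 0.54 to 0.86 in the water-sprayed arrays. It was larger after Alethea in 6 of 6 pairs, by 0.66 ± 0.41 (SD). For GAPDH it was larger in 6 of 6 pairs by 0.16 ± 0.09. Under salt the actin gap was larger in 2 of 6 pairs. The part of this in the LAPA1, TD2 and PPOF values was not tested.

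**Figure D4:**
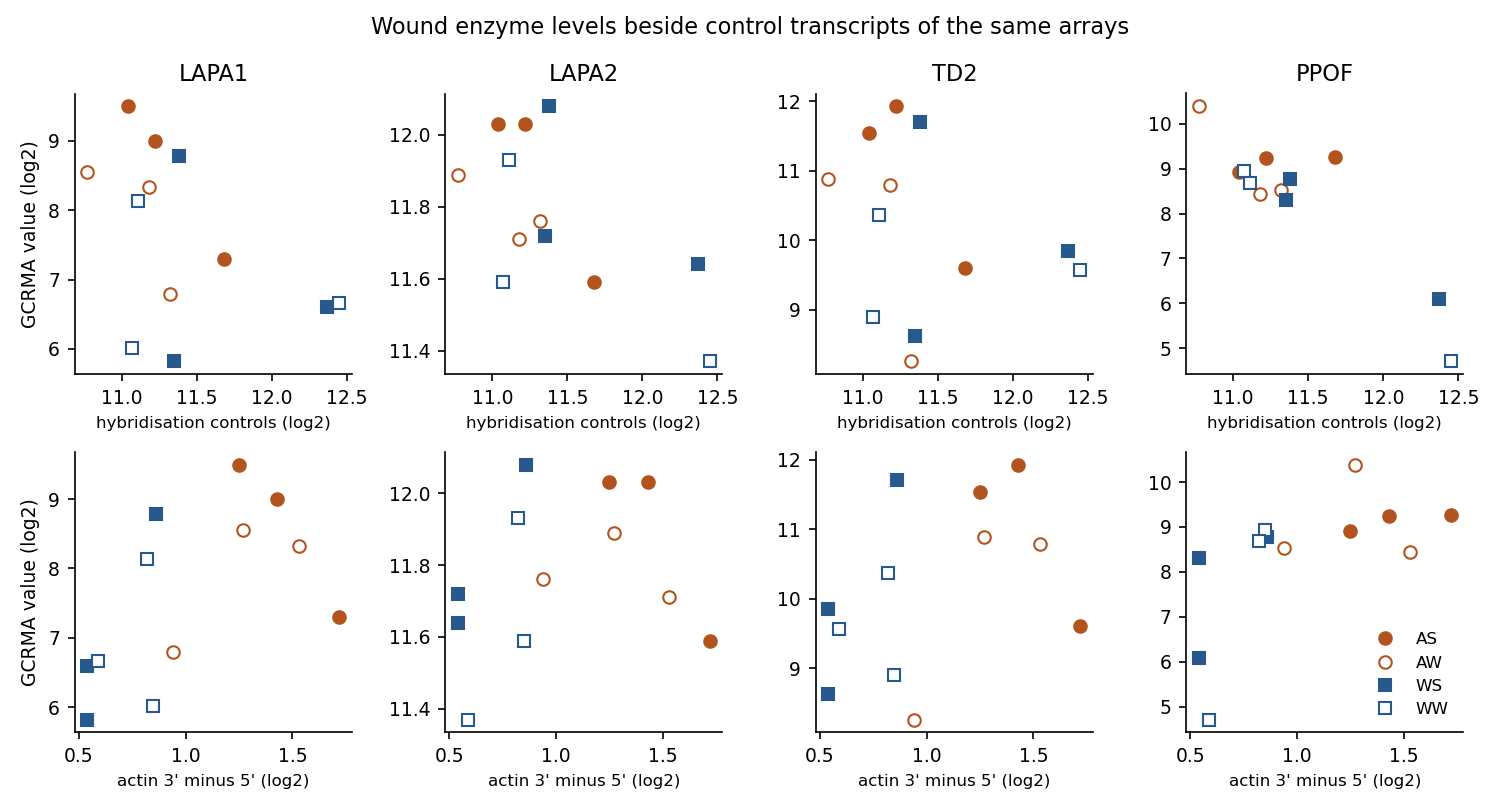
Level of each enzyme (vertical axes, GCRMA log2) against the mean of the hybridisation controls (upper row) and the actin 3′ minus 5′ difference (lower row) of the same array, for AS, AW, WS and WW arrays (n = 3 each). The WS and WW arrays at 12.37 and 12.45 hold the 2 lowest PPOF values, and the Alethea arrays lie to the right in the lower row, from 0.94 upwards.

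Markers were those of leaf. All 6 leaf mesophyll probe sets, such as those of chlorophyll a-b binding proteins and plastocyanin, measured 14.46 to 15.31 on every array. Their mean was 14.79 to 15.05 in AS, 14.84 to 15.05 in AW, 14.94 to 15.10 in WS and 14.86 to 15.07 in WW leaves. It was higher after Alethea in 0 of 6 pairs (mean difference -0.09), and in occasion 3 AW and WW leaves both had 14.86. The fruit markers polygalacturonase PG2 and E8 lay between 2.29 and 2.60, below the filter, on every array. Of the 7 fruit and flower probe sets 5 were below the filter, and the other 2, both of Psy1, had group means of 10.24 to 11.52 and had Alethea differences of 0.99 and 0.51. The mean of the list was 4.52 to 4.85 in AS, 4.56 to 4.76 in AW, 4.30 to 4.65 in WS and 4.22 to 4.62 in WW leaves, and its part in the enzyme values was not tested. Of the 4 epidermis and trichome probe sets 3 were tested. SSTLE1, the sesquiterpene synthase gene of this list, was below the filter, with group means of 2.54 to 3.12. The lipid transfer protein LE16 was at 0.57 for Alethea and 0.83 for salt, TSW12 was at 0.38 and 0.63, and ltpg1 was at -0.15 and 0.07. None of the 3 passed limma in either contrast. LE16 and TSW12 were on the salt list of the study, so their salt values cannot serve as an independent measure of epidermis. The mean of the list was 10.21 to 10.77 in AS, 10.05 to 10.49 in AW, 10.28 to 10.58 in WS and 9.30 to 10.33 in WW leaves, and this was not tested against the enzymes. In pooled whole leaves, fewer cells of a type and less RNA per cell cannot be told apart.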

How the data were processed

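RNA of 12 pools of leaf was hybridised to 1 array each. The authors normalised the signals with GCRMA (version not given in the sources used here) and deposited log2 values for 10209 probe sets, which were used as given. All columns were matched to groups by sample title, and 0 were left unmapped. Array medians were 7.66 to 7.76.

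Probe sets with a mean above 3.2 in at least 1 group (7779) entered a limma fit (limma 3.58.1, R 4.3.3) with 4 group means, the occasion as a block and Benjamini-Hochberg adjustment over all of them (residual df 6, prior df 2.63). A probe set was called under 0.05. Per the study, replicates are separate occasions, which pairs the arrays. Deviations from the group means correlated at 0.44 to 0.87 within an occasion and -0.79 to 0.63 between occasions. Each array is a pool, with 3 per group, and p-values measure the spread between pools that is left after group and occasion are fitted. For Alethea, AW minus WW and AS minus WS of an occasion enter the fit separately. With means per treatment and occasion instead, limma called 0 probe sets for Alethea.

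Names came from the array annotation (909 probe sets with a symbol, 885 matched to RefSeq, SLM_r2.1) or the study's lists. No build is named for the array, so no positions are given. Members and gene lists were chosen with earlier results of these data known. Every member was named, with the 5 genes of most similar pattern for listed members, and list genes that passed the test or, where none did, had the largest change; list genes found only through the study's lists are described without a test. Of the lists, leaf, fruit and epidermis markers were used as checks. Scripts ran in Python 3.11.15 with numpy 2.4.6, pandas 2.3.3, scipy 1.17.1 and matplotlib 3.10.9, and were tested on simulated data. Alternatives were the fit without the block, other filters, scalings and priors, Rank Product, means per treatment and occasion, and leaving out occasions or arrays.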

Additional observations from a re-analysis of the deposited data

How the results depend on the processing

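None of the 19 member changes open to a test passed under any of the alternatives run (210 values, adjusted p or estimated false discovery rate from 0.0931 to 1.0), and 193 kept their direction. Untested changes of listed members kept theirs, at 0.85 to 1.58 for LAPA1 and 0.60 to 2.18 for PPOF with Alethea, and 0.63 to 0.85 for TD2 with salt. The 17 that turned belonged to changes between -0.26 (PPOF, interaction) and 0.37 (TD2, AW minus WW) in the main fit. All arose when an occasion, or the WW and WS arrays of occasion 2 (chosen after seeing the data), were left out. Over those fits LAPA1 ranged from -0.12 to 0.30 for WS minus WW, without occasions 3 and 1. LAPA2 ranged from -0.01 to 0.19 for Alethea, -0.15 to 0.02 for the interaction, -0.09 to 0.17 for AS minus WS and -0.01 to 0.23 for AS minus AW, and TD2 from -0.08 to 0.87 for AW minus WW. PPOF ranged from -0.32 to 0.57 for salt, -1.07 to 0.39 for the interaction, -0.27 to 0.73 for WS minus WW and -0.37 to 0.77 for AS minus AW.

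Counts over all probe sets moved more. For Alethea, limma called 636, but 0 without the replicate block, 0 with means per treatment and occasion, 0 to 486 with an occasion or those arrays left out, and Rank Product called 376. For salt, it called 3, and 0 without the replicate block, 0 with means per treatment and occasion, 6 with no filter, 8 with a mean above 5, 35 with a trended robust prior, 5 after quantile normalization, 0 to 1 with an occasion or those arrays left out, and 231 by Rank Product. For AW minus WW the 0 calls became 3 with a mean above 5, 1 with the robust prior, 0 to 46 with samples left out and 33 by Rank Product. AS minus WS gave 0 to 18 with samples left out and 69 by Rank Product. WS minus WW had 3, and 0 without the block, 0 with no filter, 5 with the robust prior, 0 to 1 with samples left out and 28 by Rank Product. AS minus AW gave 22 by Rank Product. The cause of these moves was not tested. With 3 arrays per group their number limits the precision, and signals under 3.2, as for PPO-A, have no usable level.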
